A study of Mus musculus with 6 samples.

Results

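Cytosolic ribosomal proteins were followed in CD4+ T cells from the spleen (SP) and among the intraepithelial lymphocytes (IEL), the T cells that lie between the epithelial cells of the small intestine. Their genes were taken by symbol from the array design, as names that begin with Rpl or Rps and go on with a number, together with Rpsa, while the Rps6k kinases and 31 other ribosomal protein pseudogenes on the array did not match. Rps4l matched the symbol rule although the reference annotates it as a transcribed pseudogene, and it was kept. This gave 63 genes on 65 probes, of 19321 named genes on 23473 probes in all. Of these 63 genes, 38 belong to the large subunit and 25 to the small subunit. RefSeq lists 81 mouse protein-coding genes whose symbols match in the same way, and 19 of them, among them Rplp0, Rplp1, Rplp2, Rps27a and Rpl6, had no named probe here and were not analysed.

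The cells came from male C57BL/6 mice, aged 5 weeks (young) or 89 weeks (old) by the labels (the stated methods put the old mice at a slightly younger age). There were 6 groups with 1 array each: young SP CD4, old SP CD4, young IEL CD4 and old IEL CD4, sorted as CD3+CD4+ cells with a purity over 98%, and 2 further old IEL fractions labelled cd27cd28 and others, which the labels describe as left out of the paper and whose gates were not given. Each group rests on T cells from 4 to 6 mice, with no statement on pooling. With 1 array per group there was no spread between mice, no test and no p-value, and every difference below is a difference between 2 arrays.

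A ribosome is built from a small subunit, which reads the mRNA, and a large subunit, which joins amino acids into protein, and each cytosolic ribosomal protein is, with few exceptions, present once per ribosome. Many of their mRNAs start with a run of pyrimidines, the 5′ terminal oligopyrimidine (TOP) tract, through which mTORC1 and the RNA-binding protein LARP1 control their translation. Resting T cells make little protein and raise ribosome production when they are activated, and intestinal IEL are known as tissue-resident cells in a partly activated state.

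A promoter was found in the RefSeq table (build GRCm38.p6) for 49 of the 63 genes. A C at the annotated start followed by at least 4 more pyrimidines was present in 11 of these 49 genes (22.4%) and in 2.61% of 17443 other protein-coding genes. The start regions of 6 of the genes whose values are given below show what such a tract looks like. Each window holds 15 bases before the annotated start and 15 bases from it, on the strand of the gene, with the pyrimidine tract at the start in capitals.
Rpl28 (chr7:4792950-4792979, plus strand): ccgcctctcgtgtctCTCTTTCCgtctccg
Rps21 (chr2:180257364-180257393, plus strand): taccgaggacccgccCTCCTgcccaatagt
Rps15a (chr7:118116133-118116162, minus strand): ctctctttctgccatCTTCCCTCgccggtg
Rps27 (chr3:90213634-90213663, minus strand): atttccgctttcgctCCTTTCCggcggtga
Rps6 (chr4:86857353-86857382, minus strand): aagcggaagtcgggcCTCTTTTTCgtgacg
Rpl23 (chr11:97782425-97782454, minus strand): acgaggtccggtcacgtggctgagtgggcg
Rpl23 is shown for contrast, as a gene with no C at its annotated start and therefore no capitals. Annotated starts can lie some bases away from the start used in T cells, so the absence of a tract says only that these letters are not at this position.

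In the 300-base promoters, from 250 bases before the start to 50 after it and on both strands, CCGGAAG, a motif bound by ETS factors such as GABPA, was found in 44.9% of the 49 genes and in 12.9% of the other genes. AAGATGGC, the motif of YY1, was found in 8.16% and 3.55%, GGGCGG, the GC box bound by SP1, in 59.2% and 49.2%, and the TATA box TATAAA in 10.2% and 14.8%. CCGGAAG and AAGATGGC can share the letters AAG where they adjoin. A match describes letters and is not a binding site. The 10 genes with a tract and a signal over 100 had a median log2 difference between young IEL and young SP of -0.74, and the 33 without a tract one of -0.75. In old mice these medians were -0.61 and -0.51, for SP age -0.22 and -0.19, and for IEL age 0.06 with a tract and -0.03 over 32 genes without one. The middle 50% of the groups with and without a tract overlapped in all 4 comparisons.

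Signals are intensities above the blank spots, scaled by the median of the detected probes of each array to 25. Of the 63 genes, 61 were detected on all 6 arrays, 53 had a signal over 100 on some array and 26 over 10000. The other 10 genes (Rpl10l, Rpl21, Rpl30, Rpl37, Rpl38, Rpl39l, Rpl3l, Rps19, Rps20 and Rps4l) were dim on every array and were left out of counts and medians. A dim signal can belong to a weak probe as well as to a scarce mRNA, so no gene was ranked by its level against another. No spot of these genes was flagged by the scanner or reached its upper limit. Replicate spots of 2 positive controls on each array gave a spot error with a mean log2 SD of 0.127. This corresponds to 0.18 for a difference between 2 arrays and leaves out all variation between mice and between hybridisations. The SD of a control was 0.184 to 0.212 on young IEL and at most 0.146 on the other arrays. The error of a difference that includes young IEL is thus larger than 0.18.

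The probes of the ribosomal protein genes together took 13.5% of the summed signal on the young SP array and 12.03% on old SP. On the IEL arrays this share was 9.95% in young CD4, 10.1% in old CD4, 10.02% in cd27cd28 and 9.88% in others. Both SP arrays thus lay above all 4 IEL arrays, and the 4 IEL arrays lay close together. The share of the large subunit ran from 4.92% (others) to 6.69% (young SP) and that of the small subunit from 4.69% (young IEL) to 6.77% (young SP), so the order of SP over IEL held in each subunit. A share within an array does not depend on the scaling between arrays. In bulk RNA, fewer cells of a kind and less RNA per cell cannot be told apart. The share does depend on the background correction: with the local background of each spot removed (normexp), the shares were 8.03% in young SP, 7.71% in young IEL, 8.07% in old SP and 6.56% in old IEL, so that SP stayed above IEL with a smaller gap in young mice.

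**Figure D1:**
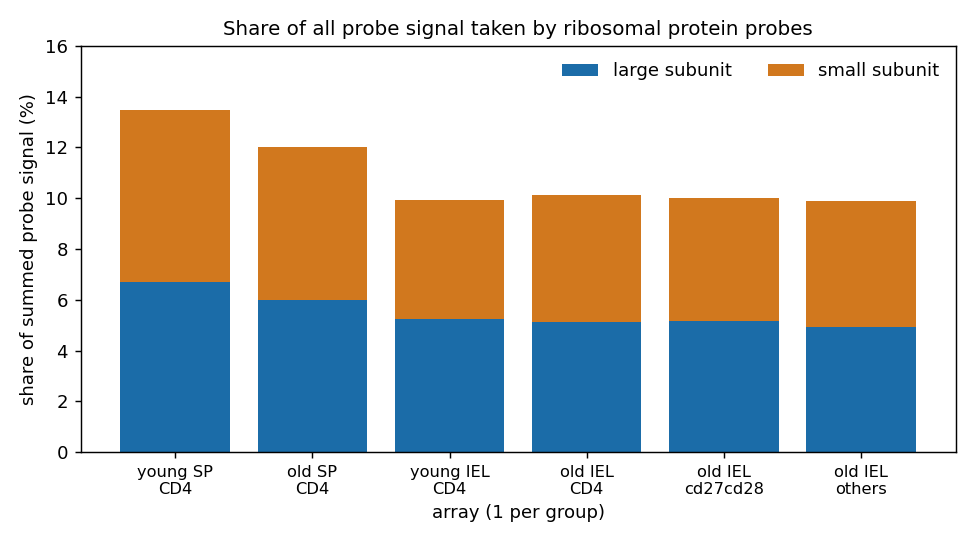
Share of the summed signal of all detected probes taken by probes of large (blue) and small (orange) subunit genes, in percent, on each of the 6 arrays, 1 per group. The SP arrays reach 13.5% and 12.03%, and the IEL arrays lie between 9.88% and 10.1%.

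In young mice, ribosomal protein genes were lower in IEL than in SP for all but 1 of the genes. The median log2 difference over the 53 genes with a signal over 100 was -0.71, a 1.63-fold lower signal in IEL, where the median of all 4994 features tested was -0.18. 50 of the 53 genes lay below that median of all features, where 50% of features do by definition. 4 genes were more than 2-fold lower and 0 more than 2-fold higher, against a background of 17.9% of features past 2-fold in either direction and 10% past 2-fold lower, so that the shift was broad and small rather than large in single genes. Relative to all features the genes were lower by a median of 0.53 on the log2 scale, or 1.44-fold. After normexp the median was only -0.052, but relative to all features it was -0.43.

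The 4 genes past 2-fold lower in young IEL were Rpl31, Rpl23 and Rpl36a of the large subunit and Rps29 of the small subunit. Rpl31, which lies near the exit of the tunnel through which the new protein chain leaves, had signals of 862 in young SP and 388 in young IEL, a log2 difference of -1.15. Rpl23 had 1368 in young SP and 636 in young IEL (-1.11). Rps29, a zinc-binding protein of the small subunit head, had 27942 in young SP and 13108 in young IEL (-1.09), and Rpl36a had 1286 and 619.8 (-1.05). Close behind came Rps15 (-0.99), Rpl39 (-0.99), Rpl22 (-0.98), Rpl35 (-0.97) and Rps3 (-0.94). Rpl22, whose loss in mice blocks the development of alpha beta T cells, and Rps3, which lines the mRNA entry channel, have functions outside the ribosome as well.

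At the other end, Rpl13a, known in human myeloid cells for leaving the ribosome after interferon gamma to silence selected mRNAs, had 793 in young SP and 938 in young IEL, a log2 difference of 0.24 and the only one above 0 among the 53 genes with this scaling; relative to the median of all features 3 of the 53 were higher. Rps27l, a p53-induced paralog of Rps27, was level (428 in young SP and 424 in young IEL), while Rps27 itself had 25091 and 13258 (-0.92). Rpl41 (-0.14), the shortest of the ribosomal proteins, lay within the mean spot error SD of 0.18. Rps15a (-0.23) and Rps24 (-0.24) lay just outside that mean, but the error is larger with young IEL, so they cannot be told from spot error.

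In old mice the same direction was seen with a smaller distance from all other features. The median log2 difference between old IEL and old SP was -0.54 over 52 genes, a 1.46-fold lower signal in IEL, but the median of all 5042 features was itself -0.37. Relative to all features the genes were lower by 0.18 on the log2 scale, and 40 of the 52 lay below the median of all features, where 50% of features do. 4 genes were more than 2-fold lower and 0 higher, against backgrounds of 17.4% in either direction and 12.7% lower. When the arrays were scaled on probes detected on all 6 of them, the median was -0.13 in old and -0.52 in young mice. With that scaling 2 and 0 genes passed 2-fold, where 13.6% and 16.6% of features did.

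The genes past 2-fold lower in old IEL were all of the large subunit. Rpl28 had signals of 3001 in old SP and 989.8 in old IEL, a log2 difference of -1.60. Rpl3, a protein at the peptidyl transferase centre, had 1028 and 442 (-1.22), Rpl22 had 131 and 56.7 (-1.20), and Rpl23 had 1200.3 and 565 (-1.09). Rpl23 was thus past 2-fold at both ages, whereas Rpl31, Rps29 and Rpl36a were at -0.75, -0.50 and -0.51 in old mice. 4 genes were higher in old IEL than in old SP: Rps21 (0.74), Rps15a (0.37), Rpl13a (0.24) and Rps27l (0.22). Relative to the median of all features 12 of the 52 were higher. Rpl13a and Rps27l therefore stood apart from the other genes at both ages.

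**Figure D2:**
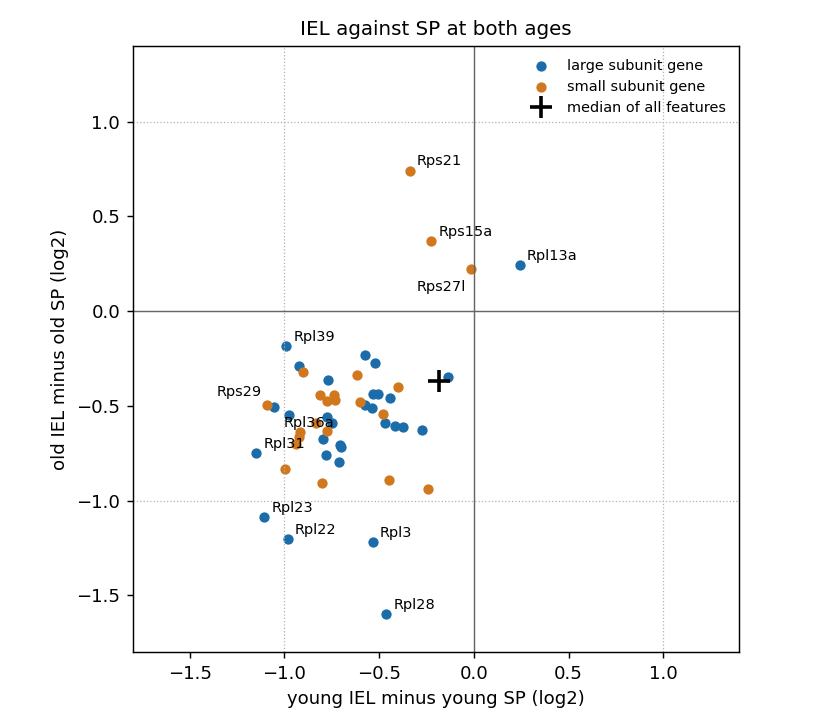
Log2 difference between IEL and SP in young mice (horizontal axis) and in old mice (vertical axis) for each ribosomal protein gene with a signal over 100 in both comparisons (large subunit blue, small subunit orange). Dotted lines mark 2-fold, the cross marks the median of all features (-0.18 and -0.37), and most genes lie to the lower left of 0, with Rps21, Rps15a, Rps27l and Rpl13a above 0 in old mice.

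The young and old site differences come from separate pairs of arrays. Over the 52 genes in both they had a Pearson r of 0.39 and a Spearman rho of 0.29, where all 4702 features in both had 0.75 and 0.61. These are correlations across genes, which are not independent.

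Within SP, ribosomal protein genes were slightly lower in old than in young mice. The median log2 difference was -0.20 over 53 genes, or 1.15-fold lower, and -0.24 relative to the median of all 5017 features (0.04). The relative value was smaller after quantile normalization (-0.11) and after normexp (-0.12), where the median itself was -0.065. 49 of 53 genes lay below the median of all features, against 50% of features, and these included all 22 genes of the small subunit. 0 genes passed 2-fold, against a background of 5.36%. The middle 50% of the genes lay between -0.29 and -0.12 and all of them between -0.84 and 0.28. Features with a signal over 1000 had a median of -0.05, and against them the genes lay lower by 0.14.

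The lowest in old SP were Rpl31, with 862 in young and 483 in old SP (-0.84), Rpl13a, with 793 and 525 (-0.60), Rpl17 (-0.45) and Rps21, with 243 and 178 (-0.45). The 4 genes above 0 were Rpl3 (848 in young and 1028 in old SP, 0.28), Rpl28 (2662 and 3001, 0.17), Rpl26 (0.15) and Rpl34 (0.08). Rps6, the substrate of the S6 kinases downstream of mTORC1, was level in SP, with 10164 in young and 10150.5 in old, and so was Rps27.

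Within IEL, the genes had no common direction with age. The median log2 difference between old and young IEL was -0.03 over 51 genes, which is 0.09 above the median of all 4566 features (-0.12). 21 of 51 genes lay below the median of all features, where 50% do, and 0 passed 2-fold, against a background of 6.33%. After normexp the median was -0.48, though 0.12 above that of all features, and 12 of 40 genes passed 2-fold, where 39.9% of features did. The middle 50% lay between -0.25 and 0.15, a range of 0.40 against 0.17 in SP. In old IEL, Rpl28 was lowest, with 1931 in young and 989.8 in old IEL (-0.96), followed by Rps24 with 139 and 78.7 (-0.82), Rpl27a with 678 and 421 (-0.69), Rpl13a with 938 and 621 (-0.59) and Rpsa (-0.53), which also serves as a laminin receptor at the cell surface. At the upper end were Rps21 (193 in young and 297 in old IEL, 0.63), Rpl39 (1198 and 1620.2, 0.44), Rps15a (0.31), Rps23 (0.31), Rpl24 (0.28) and Rps29 (0.26).

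The difference of the age differences, IEL minus SP, had a median of 0.12, or 0.30 above that of all 5331 features (-0.18). 9 of 53 genes lay below the median of all features, against 50%. After normexp the direction turned, with a median 0.17 below that of all features. Over the 51 genes measured in both, the SP and IEL age differences, which share no array, had a Pearson r of -0.07 (all 4249 features 0.10). 2 genes had age differences that lay more than 2-fold apart, where 12.5% of features did. Rpl28 was higher in old SP (0.17) and lower in old IEL (-0.96), and Rps21, a small subunit protein needed in yeast and human cells for the maturation of the small subunit rRNA, was lower in old SP (-0.45) and higher in old IEL (0.63). Rpl13a was lower with age at both sites by nearly the same amount.

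**Figure D3:**
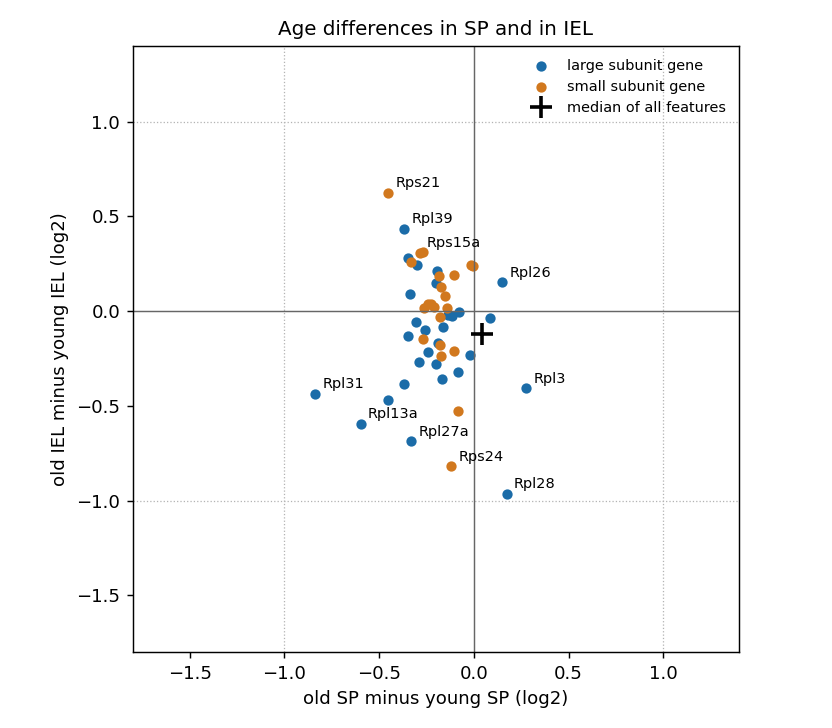
Log2 difference between old and young mice in SP (horizontal axis) and in IEL (vertical axis) for each ribosomal protein gene with a signal over 100 in both comparisons (large subunit blue, small subunit orange). Dotted lines mark 2-fold and the cross the median of all features; the genes form a narrow band left of 0 in SP (median -0.20) and spread from -0.96 to 0.63 in IEL.

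Over the 4 CD4 arrays, 45 of the 53 genes detected on all arrays were highest in young SP, where 31.1% of features were, and the count was again 45 of 53, against 30.3% of features, when the arrays were scaled on probes detected on all 6 of them. It was 34 of 53 (64.2%, features 30.7%) after quantile normalization and 19 of 42 (45.2%, features 25.8%) after normexp. 47 of the 53 genes (88.7%) had both SP arrays above both IEL arrays, where 47.3% of features did. That count rests on the scaling. On the probes detected on all 6 arrays it was 31 of 53 genes (58.5%) against 25.6% of features. It rests on the background correction as well, since after normexp it was 6 of 42 genes (14.3%) against 12.1% of features, a share near the background. The 6 genes with another order in the first count were Rpl13a, Rpl17, Rpl27a, Rps15a, Rps21 and Rps27l.

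Of the single genes, Rps21 varied most over the 6 arrays, with signals of 243 in young SP, 178 in old SP, 193 in young IEL, 297 in old IEL, 401 in others and 530.3 in cd27cd28. Old IEL arrays thus lay above all others for this gene. Rpl28 had its lowest signal in old IEL CD4 (989.8) and 1953 to 3001 on the other old arrays and young SP, with 1931 in young IEL, so that the 2 old IEL fractions did not share the low value of old IEL CD4. Rps15a varied least, between 202 and 267.

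The 2 subunits were compared by their medians. In young mice the difference between IEL and SP was -0.58 over 31 large subunit genes and -0.76 over 22 small subunit genes, and over genes with a signal over 1000 it was -0.71 and -0.79. In old mice it was -0.58 and -0.49. SP age gave -0.20 and -0.18, and IEL age gave -0.13 for the large and 0.04 for the small subunit. 15 of 29 large subunit genes and 6 of 22 small subunit genes lay below the median of all features in IEL age. In IEL age the large subunit lay below the small subunit under every alternative tried. Rescaling whole arrays leaves such a gap almost unaltered by construction, so those alternatives are no separate support. The gap, large minus small, was -0.17. It was -0.23 after normexp, -0.20 after quantile normalization and -0.11 with a signal minimum of 1000. The largest gap between the subunits was 0.23, in the difference of the age differences (0.02 large and 0.25 small). No error of a median could be had from 1 array per group, so these gaps were not tested.

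**Figure D4:**
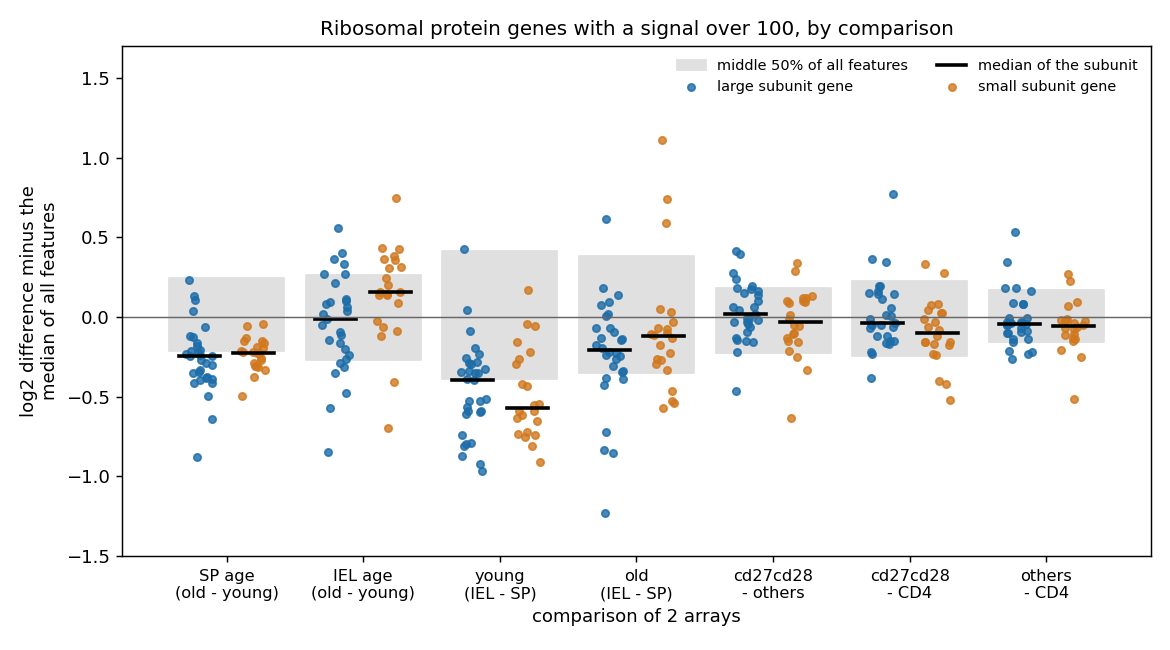
Log2 difference of each ribosomal protein gene with a signal over 100 minus the median of all features, for 7 comparisons of 2 arrays (large subunit blue, small subunit orange, black bars the subunit medians, grey the middle 50% of all features). The genes lie lowest in young IEL against young SP (subunit medians -0.39 and -0.57) and around 0 in the comparisons among old IEL arrays.

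The 2 further old IEL fractions differed little in these genes. The median of cd27cd28 minus others was 0.10 over 51 genes, where that of all 5227 features was 0.11; 26 of 51 genes lay below the median of all features (50% of features), and 0 passed 2-fold (background 3.39%). Rps3 had 10939 in others and 7617 in cd27cd28 (-0.52), and Rpl26 had 1196 in others and 1719 in cd27cd28 (0.52). Relative to the median of all features, Rps3 was lower in cd27cd28 than in old IEL CD4 (-0.40) and higher in others (0.23). Rpl26 was higher in cd27cd28 than in old IEL CD4 (0.19) and lower in others (-0.22).

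Both fractions gave higher scaled signals than old IEL CD4 for most features, with medians of 0.56 for cd27cd28 and 0.45 for others over all features. The ribosomal protein genes followed these shifts, with medians of 0.51 and 0.40 over 51 genes. 31 of 51 genes in cd27cd28 and 39 of 51 in others lay below the median of all features, where 50% did. 1 gene, Rpl28, was more than 2-fold higher in cd27cd28 than in old IEL CD4 (1.33), against backgrounds of 11% in either direction and 9.50% higher, and 0 genes passed 2-fold in others (background 3.29%). Of the 23473 probes, 16947 were detected on the old IEL CD4 array and 19785 and 19975 on the fractions, so the scaling took its median over different numbers of probes. On the probes detected on all 6 arrays, the medians of the genes were near 0 for cd27cd28 and -0.15 for others.

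Markers of other cells were read beside these values. The 3 Paneth cell markers (Lyz1, Defa17 and Defa24) summed to 4016 on the others array, to between 28.2 and 63.4 on the other IEL arrays and to 13.2 and 33.3 in young and old SP. The 8 epithelial markers summed to 999 in others and to between 186 and 451 on the remaining arrays. The 5 myeloid markers, of which Itgam was undetected on every array, summed to 791 in others, 711 of it from Lyz2, and to between 60.8 and 106 elsewhere. The ribosomal share was 9.88% in others and 10.02% in cd27cd28. The 2 erythroid markers summed to 304 in young SP, 363 in old SP, 198 in young IEL and 211 in old IEL. Most of this came from Hbb-bs, which was lower in IEL than in SP, as the ribosomal protein genes were (-0.68 in young and -0.86 in old mice). Alas2 was not lower in IEL (0.02 and 0.12). B cell markers summed to between 53.6 and 135 and stromal markers to between 9.65 and 19.1. Cd8b1, which CD4+ T cells should lack, had 465 in young SP, 321 in old SP, 643 in young IEL, 231 in old IEL, 609.7 in cd27cd28 and 554 in others. The part of other cells in the ribosomal differences was not tested. All 4 T cell markers were detected on every array, with sums from 3965 to 7342.

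Relatives with a parent gene among the members were read beside it, of which Rps4l is a transcribed pseudogene in the reference. Rpl3l, a muscle form of Rpl3, was not above the blank spots on any array. Rpl10l, the testis form that stands in for the X-linked Rpl10, was undetected in young IEL and between 2.81 and 6.92 elsewhere, while Rpl10 ran from 19502 in young IEL to 33296 in young SP. Rpl39l, another testis form, ran from 13.3 in old IEL to 22.6 in young IEL, and Rpl39 from 1198 in young IEL to 2377 in young SP. Rps4l had its highest signal in young IEL (48.5) and its lowest in old IEL (17.2), whereas Rps4x ran from 8731 in old IEL to 17579.8 in young SP. The dim relatives thus had other orders over the arrays than their parents, at signals where spot error weighs more.

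Rpl9 and Rps28 were measured by 2 probes each. The probes of Rps28 differed between young IEL and young SP by -0.89 and -0.94. Those of Rpl9 gave -1.07 on the dimmer probe and -0.49 on the brighter one, and in old mice -1.13 and -0.39. Both probes gave 1 direction for each gene between the sites, but the size differed between the probes of Rpl9 by more than the spot error.

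Genes that work with the ribosome were read from lists of their own. 5 related genes whose symbols fall outside the rule were measured. Among them was Fau, from whose product the small subunit protein eS30 is cut (20307 in young SP, 19814 in old SP, 13946 in young IEL and 15125 in old IEL). The median difference of these 5 genes between young IEL and young SP was -0.55, and 4 of 5 lay below the median of all features. In old mice it was -0.39, only 0.02 below that of all features, with 3 of 5 below. The 25 of 31 ribosomal protein pseudogenes with a signal over 100 had a median of -0.79 in young mice, with 7 past 2-fold lower, where 10% of features were. A probe for a pseudogene can bind the mRNA of its parent gene, so these probes are not separate evidence.

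Ribosome assembly factors, which process rRNA and join it with the proteins in the nucleolus, were lower in IEL as well. Relative to all features their median was lower by 0.37 in young mice (26 genes tested, 22 below the median of all features, 4 past 2-fold lower, where 10% of features were) and by 0.52 in old mice (26 tested, 23 below, 7 past 2-fold lower, where 12.7% of features were). Wdr12, of the complex that processes the large subunit rRNA, had 149 in young SP and 41.5 in young IEL (-1.84), and Utp20, needed for the small subunit, had 219 and 66.1 (-1.73). Dkc1, the pseudouridine synthase of rRNA, had 419 in old SP and 143 in old IEL (-1.55). In old IEL the assembly factors thus lay farther below all features than the ribosomal protein genes did.

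Between the sites in young mice, the other parts of the translation apparatus lay nearer to all features than the ribosomal protein genes did. The elongation factors and other TOP genes had a median of -0.23 in young and -0.54 in old mice, which is 0.05 and 0.17 below that of all features; among them Eef1g, a subunit of the factor that reloads eEF1A, had 14862 in young SP and 7189 in young IEL (-1.05) and 13871 and 6453 in old mice (-1.10). Pabpc1, the cytoplasmic poly(A)-binding protein, was 7512 in young and 3713 in old IEL (-1.02). Initiation factors lay 0.09 above all features in young and 0.12 below them in old mice, and in IEL age they were 0.27 below, with Eif3b at -0.97. Genes of RNA polymerase I and 5S transcription lay 0.01 above all features in young mice (6 genes) and 0.17 below in old mice (7 genes). The ribosomal protein genes lay 0.18 below all features in old mice, so they did not stand apart from these lists there. Mitochondrial ribosomal proteins, which serve the separate ribosome of mitochondria, lay within 0.01 of all features in young mice and 0.14 above them in old mice. They were thus unlike the cytosolic ribosomal proteins, though this contrast was not tested.

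**Figure D5:**
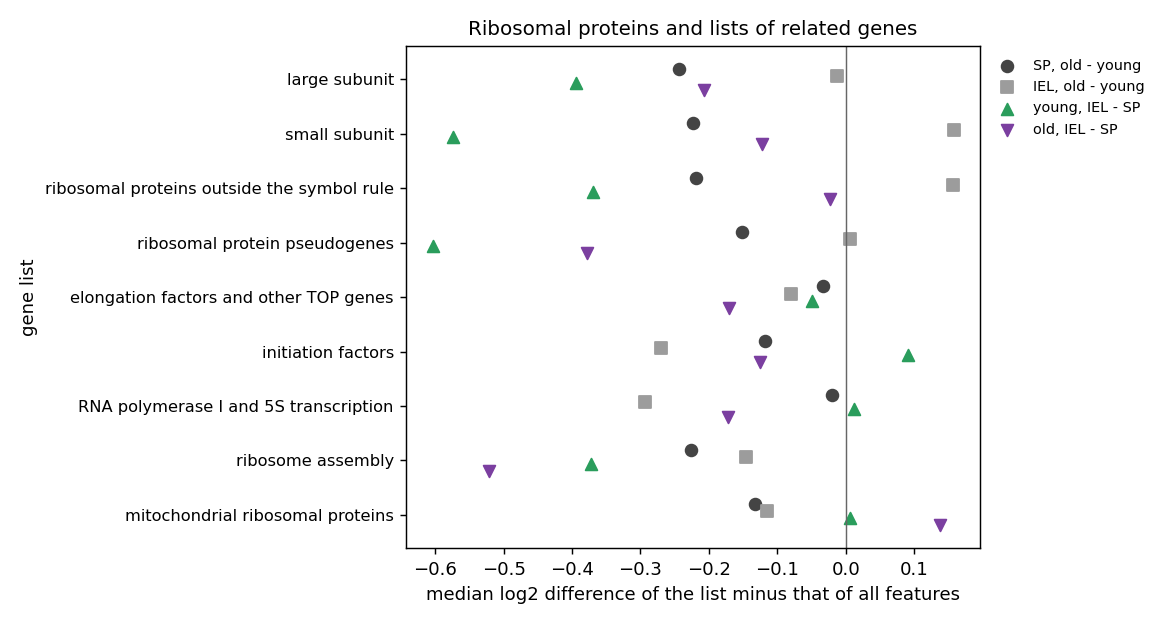
Median log2 difference of each gene list minus the median of all features (horizontal axis), for old against young in SP and IEL and for IEL against SP in young and old mice. Ribosomal proteins, ribosome assembly factors and elongation factors with other TOP genes lie left of 0 in both comparisons of IEL with SP. Between the sites, initiation factors and RNA polymerase I genes lie left of 0 in old mice only. Mitochondrial ribosomal proteins lie at or right of 0 in both of these comparisons.

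The regulators gave single values without a common direction. Myc, which drives the transcription of ribosome genes, had 106 in young SP, 101 in old SP, 45.8 in young IEL and 28.1 in old IEL (-1.21 in young and -1.84 in old mice), and Mxd1, its antagonist, had 29.5 in young SP and 145 in young IEL (2.30). Mxd1 and Myc thus lay in opposite directions between the sites. The 2 old IEL fractions did not share the low Myc value of old IEL CD4, with 94.3 in cd27cd28 and 74.9 in others. These lay 1.75 and 1.41 above old IEL CD4, where the medians of all features lay 0.56 and 0.45 above it. Cdkn1a, a p53 target that is induced when ribosomal proteins bind MDM2 and free p53, had 5.53 in young SP, 21.2 in old SP, 225 in young IEL and 135 in old IEL. It was higher in IEL at both ages (5.35 and 2.67), but its SP signals were dim, where spot error weighs more, so the size is uncertain. Mdm2 itself was nearly level, with 217, 232, 224 and 191 on the same arrays. The other genes listed with p53 did not follow Cdkn1a. Between IEL and SP, Ccng1 was lower (-0.38 in young and -0.43 in old mice) and Sesn2 nearly level (0.06 and 0.15). The activity of p53 was not tested.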

How the data were processed

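RNA of the cells of each group was hybridised with 1 dye, Cy5, to 6 arrays of a mouse oligonucleotide design with 23473 probes. The deposited scanner files hold the intensity of each spot and of its local background, read at 635 nm and merged from 3 gains, with nothing subtracted. The normalised intensity table of the authors, from which the genes were chosen by symbol, has a median of 25 per array. Its values were recovered from the scanner files by subtracting the mean of 384 blank spots, with 5% trimmed at each end, calling a probe detected more than 2 SD above it and scaling the median of detected probes to 25. Against the table they gave a Pearson r of 1, with 18 to 54 probes per array detected by only one of the sources; all values here are the recovered ones, and the table is an alternative. For a gene with several probes the log2 values were averaged.

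There were 8 comparisons, each a log2 difference over features detected on all arrays compared, with thresholds of 2-fold and of a signal over 100 on the array where it was higher. A feature is a named gene or one of the 2783 probes without a name here. No test was possible. In simulated data, the scaling did not fully recover known differences in brightness between arrays, whose sets of detected probes differ. Large changes of scattered single probes on the old SP array were recovered relative to the median of all features. Small shifts of a whole gene set, such as those described here, were not simulated, so their recovery is not known. Values are given relative to that median as well.

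The genes and the lists of related genes were chosen with earlier results of these data known. Genes were named by rule: in each comparison those past 2-fold and, from the 3 highest and 3 lowest per subunit, those that carry a result; paralogs with their parents, Rpsa, Rps6, undetected genes, genes whose probes disagree, and up to 3 genes of each list with the largest differences. Other genes named (Fau, Mdm2, Eif3b and those of intermediate rank) fall outside the rule and were chosen after seeing their values. The alternatives comprised quantile normalization, the 75th percentile, normexp with an offset of 50 (limma 3.58.1, R 4.3.3), 16 added before log2, other signal and fold thresholds, undetected probes at the lowest detected signal, the brightest probe per gene and no paralogs. Scaling on probes detected on all 6 arrays was added after the data were seen. Python 3.11.15 with pandas 2.3.3 was used.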

Additional observations from a re-analysis of the deposited data

Results flagged for a closer look

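2 genes had age differences in opposite directions at the 2 sites, more than 2-fold apart, and with 1 array per group this was not tested. They are 2 of 53 genes, where 12.5% of all features lay more than 2-fold apart. Rpl28 was higher in old than in young SP by 0.17 on the log2 scale, and its difference was -0.96 in IEL, so that IEL minus SP was -1.14. Rps21 had -0.45 in SP and 0.63 in IEL, and IEL minus SP was 1.08. Relative to the median of all features, Rpl28 was at 0.13 in SP and -0.84 in IEL and Rps21 at -0.50 in SP and 0.75 in IEL. Taken from the mean over arrays, the spot error of such a difference has an SD of 0.25. It includes young IEL, the array with the largest spot error.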

How the results depend on the processing

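No paired analysis was possible because each group has 1 array, and for the same reason no array could be left out. Of 426 values under an alternative, 368 stayed within the spot error or, for counts, within 1.5 times. The authors' table, the 75th percentile, 16 added before log2, the brightest probe per gene, undetected probes at the lowest detected signal and leaving out the paralogs moved none of the values they were run for. Adding 16 was not run for the shares and the order of the arrays, and Rps4y has no probe here.

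Normexp moved most. Over the ribosomal protein probes, the local background that it removes correlated with the spot signal on the log2 scale, with a Pearson r between 0.96 and 0.99. With it the shares were 8.03% in young SP, 7.71% in young IEL, 8.07% in old SP, 6.56% in old IEL, 6.98% in cd27cd28 and 6.26% in others. The medians were -0.052 for young IEL against SP, -0.48 for IEL age and -0.81 for the difference of the age differences, which relative to all features turned to -0.17. The genes past 2-fold were 15 for SP age, 12 for IEL age, 22 for the difference of the age differences, 14 in young and 18 in old IEL against SP, 13 between the fractions, 14 for cd27cd28 against CD4 and 11 for others against CD4. The shares of all features past 2-fold were then 36.5%, 39.9%, 55.3%, 43.3%, 38.1%, 18%, 33.5% and 27.1% in the same order, with 39 to 41 genes tested. Large minus small subunit was 0.42 for SP age, -0.55 in old IEL against SP, 0.44 for cd27cd28 against CD4 and -0.34 for others against CD4. Both SP arrays were above both IEL arrays for 14.3% of genes, where 12.1% of features were.

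Quantile normalization gave medians of -0.39 in young and -0.24 in old IEL against SP, 0.00 for cd27cd28 against CD4 and 0.032 for others against CD4. Young IEL against SP was then -0.33 relative to all features, with 2 genes past 2-fold, where 16.9% of features were. The large minus small difference there turned from 0.18 to -0.13. The share in young SP was 12.3%, and 0 genes passed 2-fold for cd27cd28 against CD4, where 4.08% of features did. Both SP arrays were above both IEL arrays for 73.6% of genes, against 32.4% of features. Scaling on the probes detected on all 6 arrays, added after the data were seen, gave medians of -0.52 in young and -0.13 in old IEL against SP. There 0 and 2 genes passed 2-fold, where 16.6% and 13.6% of features did. It turned cd27cd28 against CD4 to -0.0048, with 0 genes past 2-fold (features 4.36%), and others against CD4 to -0.15. The order of SP and IEL held for 58.5% of genes, against 25.6% of features. Relative to all features these medians moved by less than the spot error.

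At 1.5-fold, 2 genes passed for SP age, 5 for IEL age, 9 for the difference of the age differences, 30 in young and 25 in old IEL against SP, 16 for cd27cd28 against CD4 and 7 for others against CD4, where 14%, 19.8%, 29.7%, 38.1%, 41.7%, 49.5% and 29.8% of all features passed in the same order. At 3-fold, 1 gene passed in old IEL against SP and 0 in young IEL against SP, in the difference of the age differences and for cd27cd28 against CD4. Of all features, 6.47%, 8.25%, 4.71% and 1.52% passed 3-fold in the same order. With no signal minimum, 1 gene passed 2-fold for SP age, 1 for IEL age and 2 for cd27cd28 against CD4, where 5.52%, 6.62% and 17.1% of features did. Young IEL against SP was then -0.32 relative to all features. With a minimum of 1000, 1 gene passed for the difference of the age differences, where 9.98% of features did. Both SP arrays were then above both IEL arrays for 97.4% of genes, and the share of features with this order was not computed. The cause of these changes was not tested. The number of arrays limits the precision throughout.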
